A study of Mus musculus with 6 samples.

Results

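The genes described here encode the matrix metalloproteinases (Mmp), the ADAMTS proteases and the tissue inhibitors of metalloproteinases (Timp). They were taken from the GENCODE M21 annotation of the mouse mm10 genome as every protein-coding gene whose symbol is Mmp, Adamts or Timp followed by a number. This gave 45 of 21951 protein-coding genes, of which 22 were Mmp, 19 Adamts and 4 Timp genes. Accessibility was measured by ATAC-seq, in which the Tn5 transposase cuts and tags open DNA, in preadipocytes isolated from inguinal white adipose tissue, the subcutaneous fat pad of the groin, and grown on collagen-coated plates. Cells came from C57BL/6 WT mice and from DKO mice that lack both Hmgn1 and Hmgn2 (Hmgn1-/- and Hmgn2-/-), which encode nucleosome-binding proteins. All libraries were collected at day 0, before the differentiation medium, with 3 libraries of each genotype (WT1 to WT3 and DKO1 to DKO3). The study calls the ATAC-seq libraries replicates, and the legend that covers its accessibility panels speaks of biological replicates, but nothing in the sources used here says whether these were separate animals or cultures. If they were not, the p-values measure only the spread between these libraries.

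Matrix metalloproteinases are zinc-dependent enzymes that are secreted or anchored in the cell membrane, are held inactive by a propeptide and cut collagens, gelatin, laminin and other matrix proteins. ADAMTS enzymes are secreted relatives with thrombospondin repeats, some of which cut the proteoglycans aggrecan and versican and some of which trim procollagens. Timp proteins bind the active site of these enzymes and block it. In fat, turnover of the pericellular collagen network by these enzymes accompanies the rounding and growth of preadipocytes into adipocytes.

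Each library was a list of peak summits with a fold enrichment, the ratio of the pileup at the summit to the local background, and with a rank by p-value. The pileup is the count that the peak caller made at the summit. Its units are called cuts below, but the sources used here do not say whether cut sites, reads or whole fragments were counted. The lists held from 299433 to 299620 summits, which is close to the limit of 300000 that the names of the lists give, so the weakest listed summit differed between libraries. It had 8 cuts in DKO3, 12 in WT3 and 10 in each of the other libraries where the local background was low. The limit is one of p-value, so it sets no single lowest fold enrichment, and where the local background was high, listed values went down to 1.49 to 1.57. Summits were joined over the whole genome into windows that reach 250 bp to either side of the strongest summit. Of the markers of preadipocytes, 11 of 12 had a promoter window and 9 had it in all 6 libraries. Their summed fold enrichment was 64.4 to 77.4 in WT and 62 to 67.1 in DKO libraries. Of 6 markers of mature adipocytes only Retn had one, and of 3 mesothelial markers none did. Promoter windows were also present for 6 of 8 macrophage and leukocyte markers, with a summed fold enrichment of 26.1 to 33.3 in WT and 27.8 to 36.7 in DKO libraries. They were present for 4 of 5 endothelial markers (33.3 to 42.1 in WT, 33.5 to 40.3 in DKO), for all 4 pericyte and smooth muscle markers (34.2 to 44.6 and 27.9 to 36.5), for 1 of 4 neutrophil markers (8.4 to 11.1 and 5.7 to 10.1) and for 2 of 4 epithelial markers (5.8 to 10.6 and 3.4 to 9.4). The highest promoter mean among preadipocyte markers was 11.5, at Ebf2. Higher means were found at Myh11 (16.8, smooth muscle), Tek and Pecam1 (15.6 and 13.2, endothelial) and Retn (11.9), so promoter level did not single out preadipocytes. The part of other cells in the values below was not tested. At Hmgn2 a promoter window was listed in all 3 WT libraries, at 7.89, 7.53 and 9.45, and in no DKO library (log2 change -2.33, limma adjusted p = 0.0312), whereas the Hmgn1 promoter window was listed in all 6 libraries.

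In the bodies of the 45 genes and the 10 kb on either side lay 516 of the 179248 windows, 378 of them in gene bodies. Every gene had at least 1 window, the median was 8 and the highest number was 49, at Adamts12. Each library listed 850 to 881 summits there. Every library listed a summit in 310 of the windows (60.1%, against 58% of all windows), and 376 lay in introns. The nearest annotated start site belonged to a gene outside the families for 253 windows, and 45 of these lay within 1 kb of it, such as those at the Taf15, Smarcb1 and Mrpl52 promoters, so a window is named below by the member it lies near and not by a gene it acts on.

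No member window passed the test between genotypes. The question was whether accessibility around these genes differed in the absence of the HMGN proteins. Of the 516 windows, 0 were called lower and 0 higher in DKO (limma on quantile-normalized log2 fold enrichment, adjusted p under 0.05 over all windows), where 0.0357% of all windows were called lower and 0.0234% higher. The lowest adjusted p among the members was 0.146. At an unadjusted p under 0.05, 22 member windows were lower and 26 higher in DKO, which is 4.26% and 5.04% of them, against 6.1% and 5.68% of all windows. When limma was fitted only to windows listed by every library, again 0 of 310 member windows were called in either direction, where 0.59% of all such windows were called lower and 0.285% higher. The lowest adjusted p was then 0.0949, and 15 member windows were lower and 13 higher at an unadjusted p under 0.05, against 6.98% and 6.08% of all such windows. A fit without the trend of the variance on the level called 5 lower and 3 higher, against 1.17% and 1.14% of all windows, and all 8 were windows without a listed summit in 1 genotype, to which the fit gives nearly equal filled values.

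**Figure D1:**
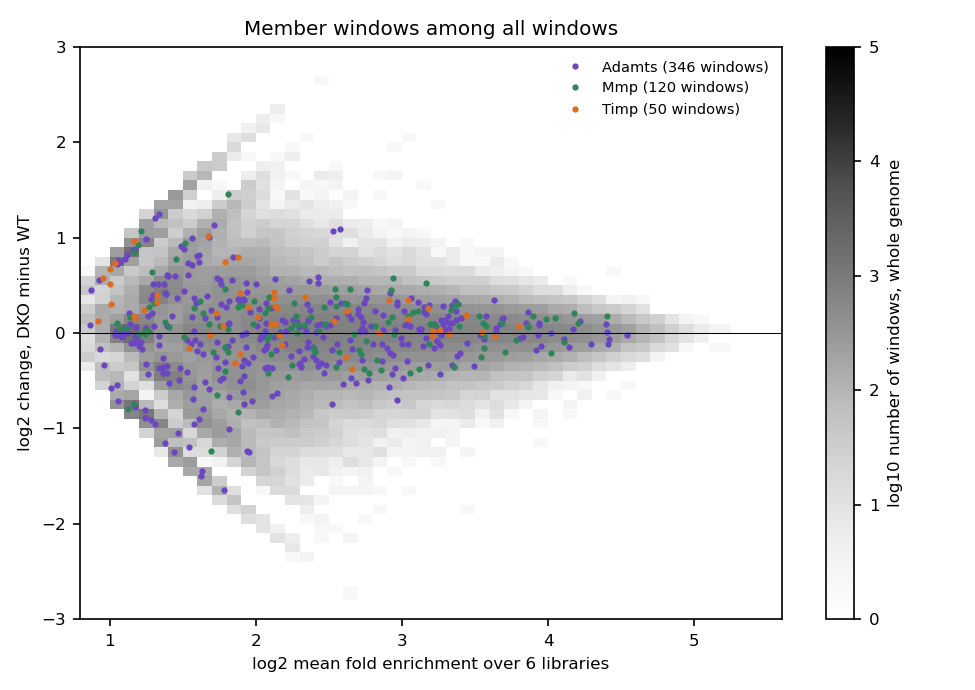
Log2 change (DKO minus WT) of the 516 member windows, coloured by gene family, against log2 mean fold enrichment, over the density of all 179248 windows in grey (log10 scale). The member windows lie within the cloud of all windows, from -1.65 to 1.46, and the diagonal streaks at low enrichment are windows with no listed summit in several libraries, which take the lowest value of that list.

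The median log2 change of the member windows was 0.048, and that of all windows was 0.01. The log2 change was within 0.5 in either direction for 415 member windows (80.4%, against 75.1% of all windows). Without scaling of the libraries the median of all windows moved to -0.135 and that of the members to -0.106, so the median of the members lay above that of all windows on both scales. After scaling, no library of one genotype lay among those of the other in 32 member windows that were lower in DKO (6.2%, against 7.67% of all windows) and in 46 that were higher (8.91%, against 8.76%). These shares are close to those of all windows.

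The chromosome 9 cluster holds 9 of the Mmp genes in the order Mmp13, Mmp12, Mmp1b, Mmp3, Mmp10, Mmp8, Mmp27, Mmp20 and Mmp7. A further symbol in it, Mmp1a, is annotated as a polymorphic pseudogene and was no member. With 10 kb at each end the cluster spans chr9:7262514-7709585 (mm10) and 447.1 kb. It held 34 windows, or 7.61 per 100 kb against 6.82 per 100 kb of the genome, and 22 of them had a summit in all 6 libraries.

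Of 31 member genes matched in the RefSeq promoter table (GRCm38.p6, from 250 bases before to 50 after each start), 6 held the AP-1 motif TGAGTCA or TGACTCA on either strand. AP-1 is the dimer of Fos and Jun family proteins through which growth factors and cytokines act on several metalloproteinase genes. All 6 genes lay in the cluster, which is 19.4% of the matched members against 5.95% of 27025 genes. RefSeq promoters were lacking for Adamts4, Adamts5, Adamts6, Adamts7, Adamts8, Adamts10, Adamts15, Adamts16, Adamts19, Mmp2, Mmp9, Mmp16, Mmp17 and Mmp19. These genes were not searched, and all of them lie outside the cluster. Among them, Mmp9 and Mmp19 had a promoter window with AP-1 within 100 bp of its centre. In each of the 6 promoters with AP-1 the motif was followed downstream by a TATAAA box on the gene strand, found in 9 of the 31 promoters (29%) against 9.77% of all. Relative to the annotated start, the box began at base -29 in Mmp10, -26 in Mmp7, -16 in Mmp13, -7 in Mmp3 and -49 in Mmp1b. In Mmp12 it began after the start, at base 5. The stretches are shown because they carry both motifs in the same order, with AP-1 and TATAAA in capitals, 5′ to 3′ on the strand of the gene:
Mmp13, chr9:7272459-7272523 (+): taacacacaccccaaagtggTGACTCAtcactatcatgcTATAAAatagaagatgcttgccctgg
Mmp12, chr9:7347310-7347403 (+): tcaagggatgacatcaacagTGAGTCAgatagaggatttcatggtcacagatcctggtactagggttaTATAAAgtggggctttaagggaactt
Mmp1b, chr9:7388050-7388139 (-): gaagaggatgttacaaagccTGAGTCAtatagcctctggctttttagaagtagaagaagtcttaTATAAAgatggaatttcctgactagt
Mmp3, chr9:7445756-7445840 (+): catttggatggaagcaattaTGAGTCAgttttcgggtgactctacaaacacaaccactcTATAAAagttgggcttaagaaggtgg
Mmp10, chr9:7502259-7502338 (+): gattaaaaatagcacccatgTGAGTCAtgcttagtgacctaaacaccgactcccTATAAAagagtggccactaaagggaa
Mmp7, chr9:7692007-7692089 (+): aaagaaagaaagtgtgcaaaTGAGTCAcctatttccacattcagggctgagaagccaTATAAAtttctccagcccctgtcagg

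From the first base of the AP-1 motif to the first base of the TATAAA box there were 19 bases in Mmp13 and from 34 to 48 in the other 5. The matches are descriptions of the sequence and not shown sites of binding. The ETS/PEA3 motif AGGAAG was found in 14 of the 31 promoters (45.2%, against 38.4%), the RUNX motif TGTGGTT in 3 (9.68%, against 6.09%) and the TEAD motif GGAATG in 2 (6.45%, against 16.6%), each counted on both strands. Within 100 bp of the centre of the 516 member windows the shares were close to those of all windows, with AP-1 in 21.9% against 23.6%, ETS/PEA3 in 23.1% against 25.3%, RUNX in 6.59% against 6.97% and TEAD in 17.2% against 16.3%. The 113 member windows with AP-1 had a median log2 change of 0.074, and all windows with AP-1 had 0.008.

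The stromelysins cut a wide range of matrix proteins and activate other proenzymes. The promoter window of Mmp3, over the AP-1 and TATAAA stretch above (chr9:7445569-7446069), reached 14.8, 8.91 and 16.7 in WT and 10.3, 11.3 and 7.85 in DKO. WT1 and WT3 were above all DKO libraries but WT2 was not, and the log2 change was -0.25 ± 0.16 (SE; limma adjusted p = 0.519). It ran from -0.42 without WT2 to -0.14 without DKO3, and was -0.42 without scaling and -1.38 ± 0.62 with only the 50000 best summits of each library, where a library with no such summit takes the lowest value kept. Its summit ranked from 37167 to 78137 and rested on 23 to 60 cuts. At Mmp10 (chr9:7502057-7502557) the values were 5.26, 4.84 and 7.34 in WT and 6.71, 7.94 and 4.59 in DKO, so the genotypes overlapped (log2 change 0.32 ± 0.21, limma adjusted p = 0.53). That change was 0.13 without scaling, 0.18 without DKO2 and 0.5 without DKO3.

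The collagenases cut the triple helix of fibrillar collagen. The promoter window of Mmp1b (chr9:7387885-7388385) was at 11.2, 12.6 and 15.7 in WT and at 9.51, 12.3 and 9.5 in DKO, again with overlap (log2 change -0.16 ± 0.14, limma adjusted p = 0.672; -0.33 without scaling, -0.71 with the 50000 best summits and -0.27 to -0.07 with a library left out). Mmp13 had a weak promoter window (chr9:7272273-7272773) at 3.8 and 3.98 in WT1 and WT2, not listed in WT3, and at 4.19, 3.97 and 3.28 in DKO (log2 change 0.46 ± 0.42, limma adjusted p = 0.685). The change was 0.0 without WT3, 0.76 without WT2 and 0.14 on pileups, the cuts at the summit without division by the background. The promoter window of Mmp8, known as the neutrophil collagenase, was listed only in DKO1 and DKO2, at 3.63 and 3.68 on 12 cuts in each.

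Among the other secreted enzymes of the cluster, Mmp27 had a promoter window (chr9:7571047-7571547) of 10.5, 7.79 and 10.2 in WT and 9.38, 8.72 and 8.41 in DKO (log2 change 0.09 ± 0.13, limma adjusted p = 0.815). The change was 0.51 with the 50000 best summits, and with a library left out it ran from 0.03 (without WT3) to 0.18 (without WT1). Mmp12, the macrophage elastase, Mmp20, the enamel protease, and Mmp7, matrilysin, had no window within 1 kb of an annotated start site, although the promoters of Mmp12 and Mmp7 carry the same AP-1 and TATAAA pair as that of Mmp3. The levels of the cluster promoters thus ran from Mmp1b and Mmp3, whose means over the 6 libraries were 11.8 and 11.6, through Mmp27 at 9.16 and Mmp10 at 6.11, to Mmp13 at 3.46 and Mmp8 at 2.24, where a library without a summit counts with the lowest value of its list. The ranges over the libraries that listed them overlapped between neighbours in this order, except between Mmp10 and Mmp13.

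**Figure D2:**
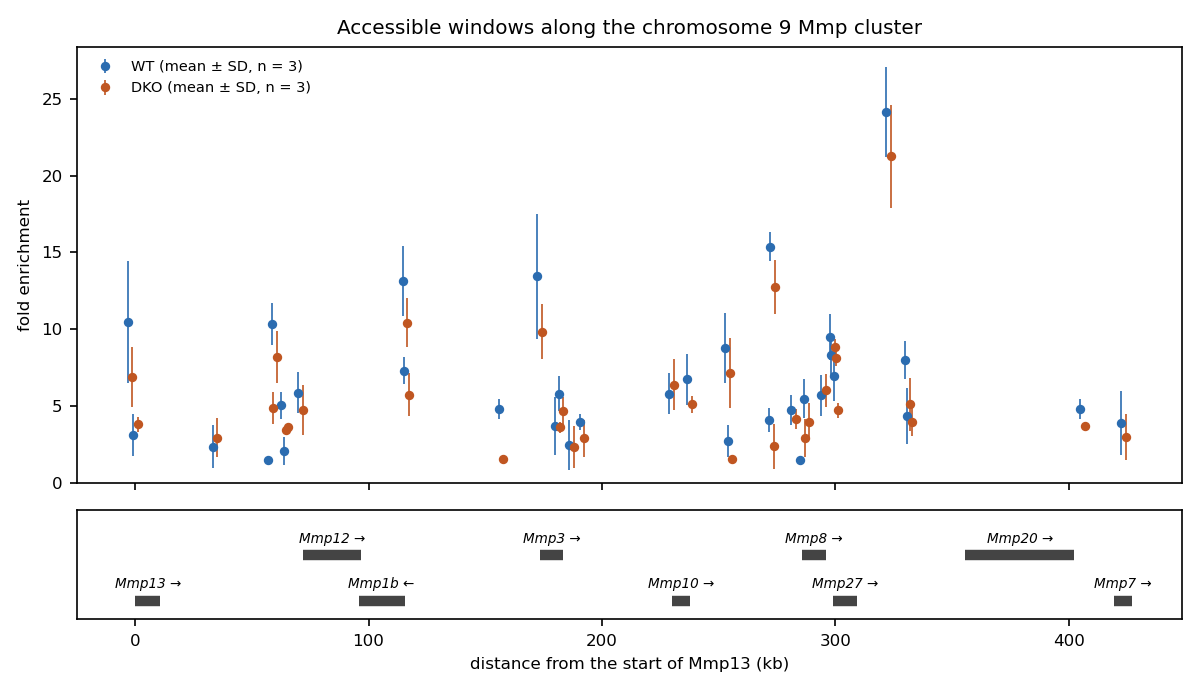
Fold enrichment of the 34 windows of the chromosome 9 Mmp cluster (mean ± SD of 3 WT libraries in blue and 3 DKO libraries in orange, drawn 1 kb to either side of the window) by distance in kb from the start of Mmp13, with the genes and their strands below. Libraries without a listed summit count with the lowest value of their list, the highest window lies between Mmp27 and Mmp20, and its WT and DKO values overlap.

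The strongest windows of the cluster lay between genes. The highest, at chr9:7595146-7595646, was 13.5 kb past the end of Mmp27 and 32.8 kb before Mmp20, and reached 21.2, 24.2 and 27 in WT and 21.2, 24.6 and 17.9 in DKO (log2 change -0.08 ± 0.12, limma adjusted p = 0.839). It ranked from 4906 to 14129 in the 6 lists, the best rank of the cluster in each. The next highest, between Mmp10 and Mmp8 (chr9:7545395-7545895), was at 16, 14.3 and 15.8 in WT and 14.4, 10.9 and 12.9 in DKO (log2 change -0.12 ± 0.14, limma adjusted p = 0.76). Both were over 10 kb from any member gene and are among 11 windows of the cluster that are not counted in the 516.

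Of the 34 cluster windows, 1 was listed in WT only and 1 in DKO only, against 1.23% and 1.14% of all windows. The window between Mmp1b and Mmp3, 16.5 kb before Mmp3, was at 4.38, 4.55 and 5.58 in WT, on 14, 15 and 18 cuts, and not listed in DKO (log2 change -1.57 ± 0.35, limma adjusted p = 0.149). The window 13.8 kb before Mmp12 was at 4.75, 5.95 and 3.93 in DKO, on 16, 20 and 11 cuts, and not listed in WT (log2 change 1.73 ± 0.35, limma adjusted p = 0.132). Neither passed the test. The central stretches are shown because they differ in motif content (+ strand, 5′ to 3′), with matches to AP-1 (TGACTCA) and ETS/PEA3 (AGGAAG) in capitals and no match to the searched motifs in the first:
listed in WT, chr9:7429174-7429374: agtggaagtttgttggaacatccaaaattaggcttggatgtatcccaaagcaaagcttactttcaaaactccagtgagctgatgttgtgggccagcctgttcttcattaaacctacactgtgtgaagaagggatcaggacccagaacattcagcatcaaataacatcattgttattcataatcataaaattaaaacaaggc
listed in DKO, chr9:7330472-7330672: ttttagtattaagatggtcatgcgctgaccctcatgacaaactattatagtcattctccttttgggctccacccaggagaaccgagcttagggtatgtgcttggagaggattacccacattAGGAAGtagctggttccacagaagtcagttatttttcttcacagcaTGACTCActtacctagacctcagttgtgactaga

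As a whole the cluster held 47, 49 and 58 listed summits in WT and 53, 51 and 57 in DKO, or 51.3 ± 5.9 and 53.7 ± 3.1 (SD, n = 3). The summed fold enrichment was 331.1, 316.7 and 432.8 in WT and 317, 313.9 and 288.1 in DKO, or 360.2 ± 63.2 and 306.3 ± 15.9. WT3 stood apart from the other libraries, WT2 lay below DKO1, and without WT3 the difference of DKO minus WT fell in size from -53.9 to -17.6. The intervals behind the sums covered 9179 to 10495 bp in WT and 8636 to 9556 bp in DKO, and the mean per summit was 7.05, 6.46 and 7.46 in WT and 5.98, 6.15 and 5.05 in DKO. These raw sums are not scaled, and WT3 also had the highest median fold enrichment over the genome. After scaling, 12 of the 34 windows were higher and 22 lower in DKO with a median log2 change of -0.15, 0 had an adjusted p under 0.05 and 3 an unadjusted p under 0.05 by limma (of all windows 6.1% were lower and 5.68% higher at that p), and the genotypes did not overlap in 3 lower and 2 higher windows (7.67% and 8.76% of all windows).

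Over all members, 40 of 45 genes (88.9%) had a window within 1 kb of an annotated start site, against 67% of 21755 protein-coding genes on the chromosomes analysed, and 30 had it in all 6 libraries. The 5 without were Adamts19, Mmp7, Mmp12, Mmp20 and Mmp21. The levels were lower than those of other genes, with a median of mean fold enrichment of 5.83 against 11.5 for all protein-coding genes with a window. The median log2 change of the member promoters was 0.11, and that of all was 0.07. Of the 40, 28 were higher and 12 lower in DKO by sign (70% higher, against 64.4% of all promoters), from -0.67 to 1.09, and the adjusted p ran from 0.262 to 0.998 by limma. Without scaling the majority turned, with 17 higher and 23 lower (42.5% higher, against 34.2% of all promoters).

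**Figure D3:**
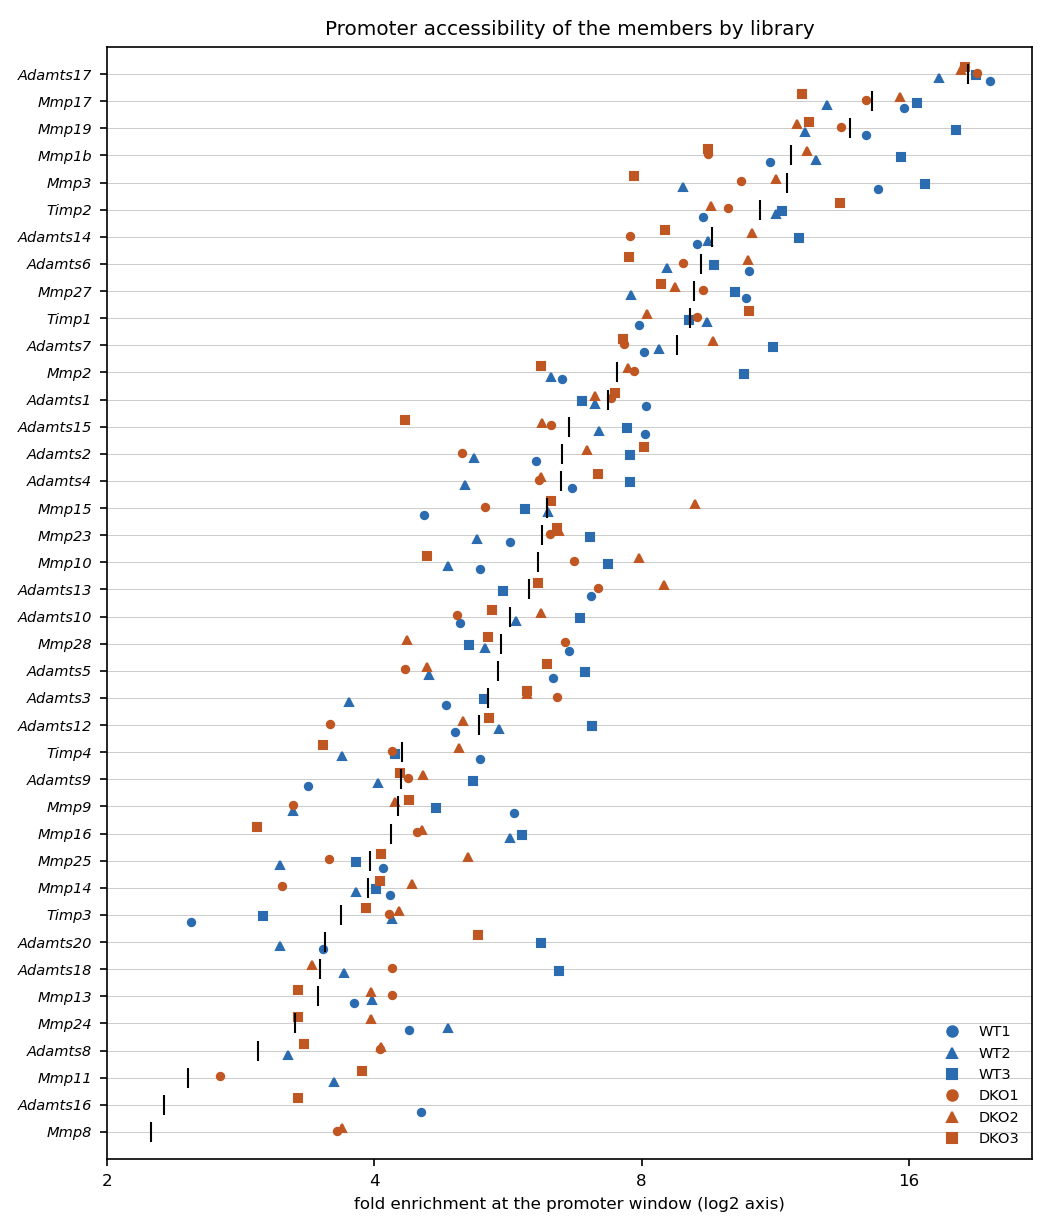
Fold enrichment (log2 axis) at the promoter window of the 40 members that have one, with 1 point per library (WT blue, DKO orange, symbol by replicate number) and a bar at the mean over 6 libraries. A library without a listed summit has no point but counts in the mean with the lowest value of its list, and the genes run from Adamts17 at a mean of 18.7 down to Mmp8 at 2.24.

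The highest promoter of the families was that of Adamts17, an enzyme linked to fibrillin microfibrils, at 19.7, 17.3 and 19 in WT and 19.1, 18.3 and 18.5 in DKO (chr7:66839354-66839854). That of Mmp17, which is held on the membrane by a glycolipid anchor, was at 15.8, 13 and 16.3 in WT and 14.3, 15.6 and 12.1 in DKO (chr5:129583905-129584405). The secreted enzyme Mmp19 followed with 14.3, 12.2 and 18.1 in WT and 13.4, 12 and 12.4 in DKO (chr10:128790666-128791166). The genotypes overlapped at all 3, with log2 changes of 0.13 ± 0.1, 0.06 ± 0.11 and -0.07 ± 0.11 (limma adjusted p = 0.642, 0.873 and 0.822). The procollagen N-proteinase gene Adamts14 and the gene Adamts6 had promoter means of 9.61 and 9.32 with log2 changes of -0.02 ± 0.15 and 0.1 ± 0.15 (limma adjusted p = 0.997 and 0.83).

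The gelatinases cut denatured collagen and the collagen of basement membranes. At the promoter of Mmp2 (chr8:92827125-92827625) the values were 6.51, 6.33 and 10.4 in WT and 7.85, 7.72 and 6.16 in DKO. At Mmp9 (chr2:164947443-164947943) they were 5.74, 3.24 and 4.7 in WT and 3.24, 4.22 and 4.38 in DKO. Both overlapped between genotypes, with log2 changes of 0.12 ± 0.17 and -0.03 ± 0.29 (limma adjusted p = 0.81 and 0.998). With a library left out the change at Mmp2 ran from 0.02 (without WT1) to 0.23 (without WT3). The 24 windows of the gelatinase genes had a median log2 change of 0.11, and the genotypes did not overlap in 4 higher and 1 lower, against 8.76% and 7.67% of all windows.

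All 4 Timp promoters had a summit in every library. Timp2, which takes part in the activation of pro-Mmp2 at the cell surface, was highest at 9.39, 11.3 and 11.5 in WT and 10, 9.58 and 13.4 in DKO (chr11:118355181-118355681). Timp1, whose start lies in an intron of Syn1, was at 7.95, 9.48 and 9.05 in WT and 9.24, 8.12 and 10.6 in DKO (chrX:20869908-20870408). Their levels overlapped with each other in both genotypes. Timp4, which lies in an intron of Syn2, was at 5.26, 3.68 and 4.22 in WT and 4.19, 4.98 and 3.5 in DKO (chr6:115251994-115252494). The promoter of Timp3, the inhibitor that stays bound to the matrix, was at 2.49, 4.19 and 3 in WT and 4.16, 4.27 and 3.92 in DKO (chr10:86300286-86300786). WT2 lay among the DKO values and the other WT libraries below them. The log2 changes were 0.19 ± 0.19 for Timp2, 0.26 ± 0.19 for Timp1, 0.09 ± 0.27 for Timp4 and 0.8 ± 0.4 for Timp3, and none passed the test (limma adjusted p = 0.711, 0.58, 0.943 and 0.458). The change at Timp3 was 0.46 when fitted to windows listed by every library and 0.38 without scaling, that at Timp1 was 0.07 without scaling and 0.05 on pileups, and that at Timp2 was 0.02 without scaling. With a library left out it ran from 0.12 (without DKO3) to 0.43 (without WT2) at Timp1 and from 0.0 (without DKO3) to 0.34 (without WT2) at Timp2.

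By role, the medians of log2 change ran from -0.03 for the 93 windows of the ADAMTS proteoglycanases to 0.19 for the 50 windows of the inhibitors, and 0 windows of any role passed the test by limma. In the inhibitor windows the genotypes did not overlap in 8 higher and 1 lower, against 8.76% and 7.67% of all windows, and 6 of the 8 were at Timp2. For the 46 windows of the membrane-bound enzymes the median was 0.08, for the 25 of the other secreted enzymes 0.09, for the 18 of the stromelysins 0.05, for the 11 of the collagenases -0.02, for the 68 of the procollagen N-proteinases 0.02 and for the 185 of the other ADAMTS genes 0.01.

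**Figure D4:**
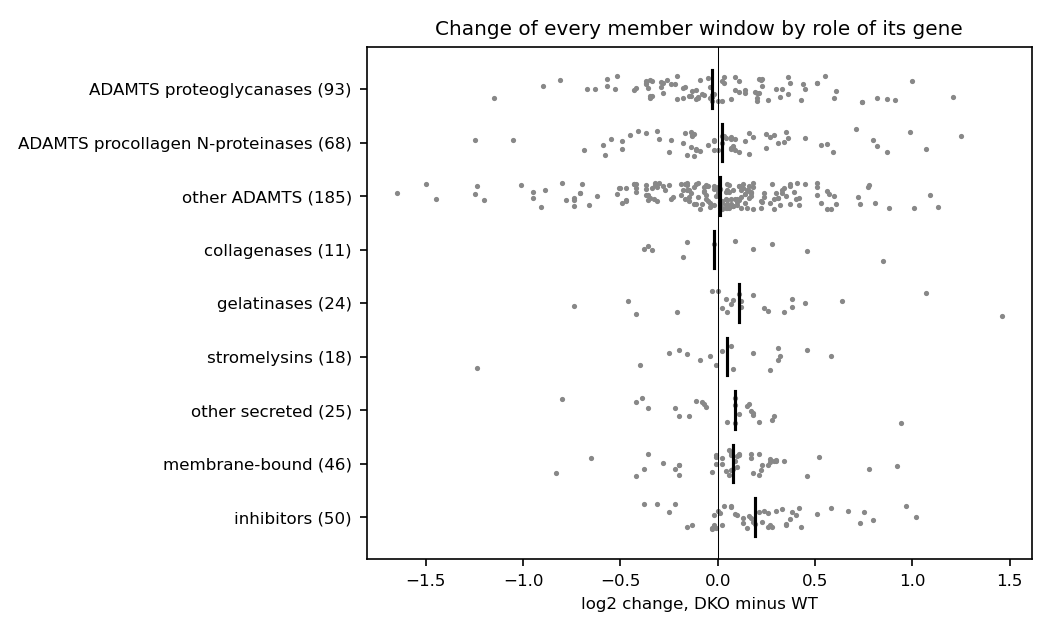
Log2 change (DKO minus WT) of every member window, 1 grey point each, by the role of its gene, with the number of windows in brackets and a black bar at the median. Each group straddles 0, with medians between -0.03 and 0.19, and a window near genes of different roles appears in each.

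Of the 10 strongest member windows, 7 lay in or beside ADAMTS genes, as do 346 of the 516 windows. An intron of Adamts17 (chr7:67034339-67034839) held the highest, at 23.1, 23 and 26.8 in WT and 22.4, 22.5 and 22.2 in DKO, ranked from 2220 to 5639. Adamts12, which cuts cartilage oligomeric matrix protein, had 3 of the 10 highest, with means of 21.4 beyond its end and 21.2 and 19.6 in introns. The others were an intron of Adamts3 (21.2), an intron of Adamts6 (21.1), the Adamts17 promoter, a window at the Taf15 promoter near Mmp28 (21.2), a window in an untranslated region of Mmp25 (18.5) and one 6290 bp before the start of Mmp25 (18.1). Their log2 changes ran from -0.12 to 0.21.

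Among the member windows listed by every library, the genotypes did not overlap in 19 that were lower and 31 that were higher in DKO, against 7.95% and 9.86% of all such windows. Of these, only the 10 with the largest log2 change in either direction are described. The largest change was in a coding exon of Adamts19 (chr18:59007080-59007580), at 7.88, 5.41 and 9.39 in WT and 3.35, 4.53 and 3.93 in DKO, so that the lowest WT library was above the highest DKO library (log2 change -0.74 ± 0.22, limma adjusted p = 0.199). An intron of Adamts18 (chr8:113762387-113762887) was at 10.8, 6.83 and 12.6 in WT and 6.71, 6.24 and 3.6 in DKO (log2 change -0.7 ± 0.23, limma adjusted p = 0.251), where WT2 and DKO1 were close and the change without DKO3 was -0.45. A coding exon of Adamts20, the gene of a versican-cutting enzyme (chr15:94325877-94326377), was at 9.05, 7.12 and 12.3 in WT and 4.75, 7.09 and 4.92 in DKO (log2 change -0.57 ± 0.19, limma adjusted p = 0.241), with WT2 and DKO2 nearly equal.

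Of the windows that were higher in DKO among these, the Adamts3 promoter (chr5:89883088-89883588) was at 4.82, 3.75 and 5.31 in WT and 6.43, 5.95 and 5.94 in DKO (log2 change 0.59 ± 0.2, limma adjusted p = 0.262; 1.04 ± 0.4 with narrower windows). Adamts3 removes the N-propeptide of procollagens, as does Adamts2, where an intron (chr11:50674317-50674817) was at 4.88, 4.5 and 4.83 in WT and 6.23, 5.74 and 6.11 in DKO (log2 change 0.53 ± 0.2, limma adjusted p = 0.34). In both, every DKO library was above every WT library, and the change at Adamts2 was 0.35 without scaling. Among the windows with the largest changes, the other 4 higher in DKO overlapped before scaling and were set apart only after it. At the start of Adamts17 and at the Smarcb1 promoter near Mmp11 the log2 changes were 0.61 ± 0.37 and 0.58 ± 0.18. At the Mrpl52 promoter near Mmp14 and in an intron of Adamts7 they were 0.52 ± 0.15 and 0.51 ± 0.28. The limma adjusted p of the 4 ran from 0.194 to 0.481. The change at the start of Adamts17 was 0.19 when fitted to windows listed by every library, 0.34 with median centring and 0.17 without scaling, and that near Mmp14 was 0.33 without scaling. With the 50000 best summits the change near Mmp14 was 0.84 and that near Mmp11 was 1.46 ± 0.29 (limma adjusted p = 0.0795).

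The remaining window of the 10 with the largest change was lower in DKO and lay at Adamts5, which encodes one of the main aggrecan-cutting enzymes. This window, 9296 bp before the start (chr16:85910874-85911374), was at 5.84, 5.12 and 5.87 in WT and at 3.08, 3.4 and 3.28 in DKO, on 17 to 19 and 9 to 11 cuts. The genotypes did not overlap, but the log2 change of -0.63 ± 0.25 had a limma adjusted p of 0.362. The summits in DKO1, DKO2 and DKO3 rested on 10, 11 and 9 cuts. This is close to the weakest listed summits of those libraries, at 10, 10 and 8 cuts. Among the 10 largest changes, AP-1 lay within 100 bp of the centre here and in the Adamts18 intron, both lower in DKO. It did so too in the windows near Mmp11 and in Adamts7, both higher in DKO. A link of AP-1 with these changes was not tested. The centre of the Adamts5 window is shown because it lies upstream of its own gene and holds AP-1 (+ strand, 5′ to 3′, with AP-1 TGACTCA and the complement of the TEAD motif GGAATG in capitals):
Adamts5 upstream, chr16:85911024-85911224: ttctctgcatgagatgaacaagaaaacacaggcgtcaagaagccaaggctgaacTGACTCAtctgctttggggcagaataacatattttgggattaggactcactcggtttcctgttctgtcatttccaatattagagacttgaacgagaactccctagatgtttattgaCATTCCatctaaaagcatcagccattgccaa

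There were 7 member windows that each WT library listed and none of the DKO libraries did (1.36%, against 1.23% of all windows), and 4 for which the reverse held (0.775%, against 1.14%). All 7 of the first kind were in Adamts genes or beside them, where 346 of the 516 windows lie. The strongest was in a coding exon of Adamts6 (chr13:104366637-104367137), at 5.84, 3.42 and 6.75 in WT on 19, 11 and 22 cuts (log2 change -1.65 ± 0.36, limma adjusted p = 0.146). An intron of Adamts18 (chr8:113791753-113792253) was at 3.8, 4.55 and 5.58, on 12, 15 and 18 cuts (log2 change -1.5 ± 0.36, limma adjusted p = 0.156), in the same gene as a window described above. Adamts19 held a pair, in an intron at 4.09, 3.13 and 4.4 and beyond its end at 3.5, 3.7 and 6.75 (log2 changes -1.25 ± 0.36 and -1.45 ± 0.37, limma adjusted p = 0.192 and 0.165). Introns of Adamts5 and Adamts12 were at 3.26, 3.06 and 4.68 and at 3.62, 2.7 and 3.22 (log2 changes -1.15 ± 0.37 and -0.89 ± 0.39, limma adjusted p = 0.234 and 0.406) and rested on 12, 10 and 17 and on 23, 16 and 25 cuts. The weakest of the 7, in a coding exon of Adamts1, was at 2.3, 2.55 and 2.22.

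The 4 windows listed only in DKO were weak. They lay in introns of Adamts2 (3.62, 3.68 and 3.28) and Adamts9 (3.35, 3.97 and 2.95), in an untranslated region of Mmp2 (2.54, 3.14 and 3.62) and 469 bp before the start of Timp2 (3.31, 2.68 and 2.84), beside the strong Timp2 promoter window. They rested on 14, 12 and 9 cuts at Adamts2, 11, 13 and 8 at Adamts9, 19, 24 and 21 at Mmp2 and 20, 16 and 13 at Timp2. Their log2 changes were 1.25 ± 0.36, 1.21 ± 0.37, 1.07 ± 0.39 and 0.97 ± 0.38, and the limma adjusted p ran from 0.189 to 0.348. The size of a change at a window listed in 1 genotype only rests on the value filled in for the other. On pileups it was -0.61 at Adamts6, -0.46 at Adamts18, -0.14 and -0.4 at the Adamts19 intron and end, -0.2 at Adamts5, -0.94 at Adamts12, 0.33 at Adamts2, 0.17 at Adamts9, 1.23 at Mmp2 and 0.83 at Timp2, and with wider windows it was -0.38 at Adamts12.

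**Figure D5:**
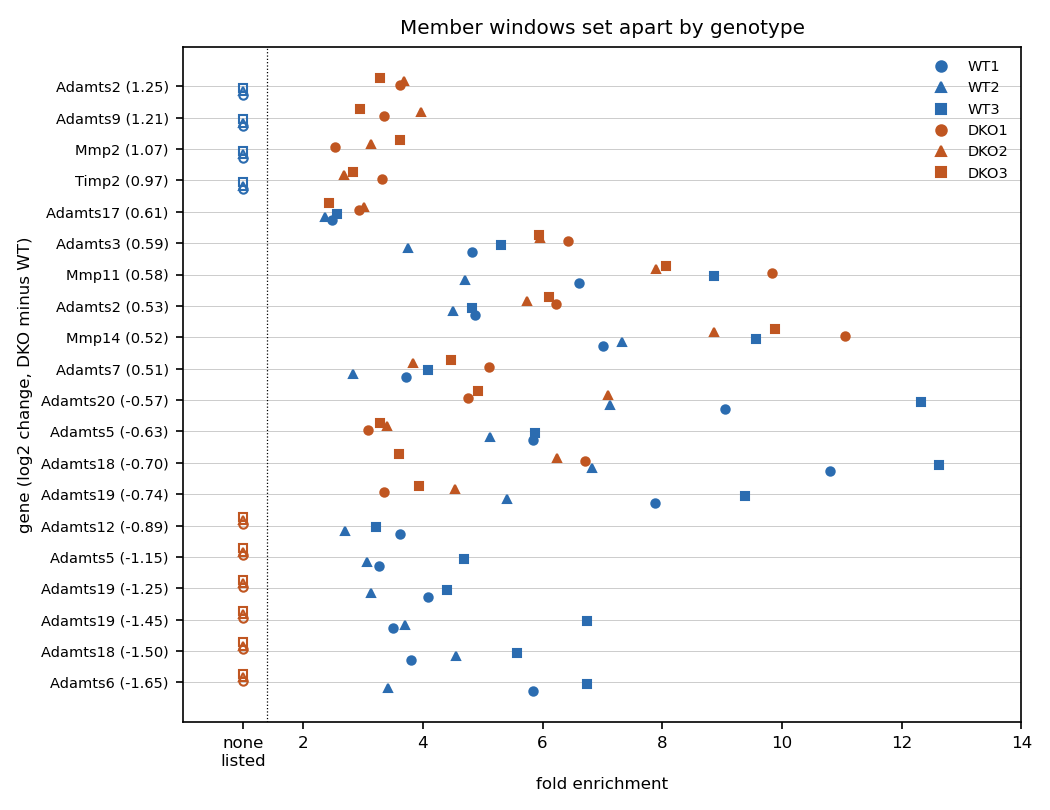
Fold enrichment in each library (WT blue, DKO orange, symbol by replicate number) at the 10 windows with the largest change among those listed by every library and without overlap after scaling, and at 10 windows listed in 1 genotype only, with the log2 change in brackets. Open symbols at the left mark libraries with no listed summit, and the windows listed only in DKO all lie below 4 where those listed only in WT reach 6.75.

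The 30 other genes of the pathway held 612 windows. They comprise the ADAMTS-like proteins, the ADAM sheddases, the plasminogen system, the proprotein convertases that remove propeptides, and substrates and receptors such as versican and Lrp1. By limma, 0 were called in either direction in the main fit, with 29 lower and 30 higher at an unadjusted p under 0.05 (6.1% and 5.68% of all windows) and a median log2 change of 0.008. With limma fitted only to windows listed by every library, 0 of 367 were lower and 1 was higher, against 0.59% and 0.285% of all such windows. The 1 was a window near Adam17, the sheddase that Timp3 inhibits, at 4.38, 3.42 and 6.46 in WT and 11.5, 6.24 and 9.18 in DKO (chr12:21335786-21336286, log2 change 1.1 ± 0.23, limma adjusted p = 0.0172), where the highest WT library is above the lowest DKO library before scaling. In the main fit the same window had an adjusted p of 0.154 by limma.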

How the data were processed

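ATAC-seq libraries of WT and DKO preadipocytes at day 0 were analysed, 3 per genotype. According to the study's methods, libraries were made with the Nextera Tn5 kit and sequenced as paired-end reads on a NextSeq instrument, and duplicate and mitochondrial reads were removed. The submitters' processing notes name bcl2fastq 2.17, cutadapt 1.18, Bowtie2 2.3.4.3, MACS2 without a version and the build mm10. The authors deposited 1 MACS2 peak list per library with the fold enrichment at each summit (a ratio to the local background) and the −log10 p and −log10 q of the summit, whose names give a p threshold of 0.01 and a limit of 300000 summits, whereas the study's methods state default MACS2 settings. The summit totals were just under that limit in every list. Read totals were not used here. The pileup of cuts behind each summit was solved from the fold enrichment and p, and was whole within 0.001 in log10 p for over 99% of summits. Precision is limited by the low pileup of weak summits.

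From the lists, all summits were joined into windows over the genome, and windows with a summit of q under 0.01 in 2 or more libraries were kept. Values came from every listed summit, of which 90.3% in DKO3, 97.5% in WT2 and 100% in the other libraries had q under 0.01. A library with no summit in a window took the lowest value of its list. Log2 fold enrichment was quantile normalized and fitted with limma 3.58.1 in R 4.3.3 (trend, no covariate, two-sided), and p-values were adjusted by Benjamini and Hochberg across the 179248 windows and called under 0.05. The fit was also run on simulated data, and its outcome there is not given here. The summits of the files lay within the chromosomes of the GRCm38.p6 reference, from which sequences were read; promoter sequences are those of RefSeq. The members, gene lists, motifs and the rule for named windows were chosen with earlier results of these data known. Named were windows that passed either fit (0 did), promoters of the chromosome 9 cluster, of Timp genes, of gelatinases and of the 10 highest, the 10 largest changes among non-overlapping windows listed by every library, windows listed in 1 genotype only (up to 6 each) and the 10 strongest. Alternatives covered scaling, variance trend, peak threshold, measure, window width, margin, replicate block and leaving out each library.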

Additional observations from a re-analysis of the deposited data

How the results depend on the processing

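The counts of 0 called member windows held under median centring, no scaling, the −log10 p and pileup measures, narrower and wider windows, gene bodies alone, the replicate block and leaving out any library. Leaving out a library called 0 to 1 lower and 0 to 6 higher windows in the whole genome, and the block called 0 of all windows. The other fits of this list also called few, from 14 lower and 12 higher without scaling to 157 and 87 with median centring. The main fit called 64 and 42. A count of 0 among the members therefore says little in any of these fits. Without the trend 5 member windows were lower and 3 higher, all listed in 1 genotype only. With only the 50000 best summits of each library 1 of 97 was lower and 0 higher, against 1.4% and 0.754% of all windows in that fit. The 1 was an intron of Adamts14 (chr10:61199509-61200009) at 11.5, 10.8 and 13.3 in WT and 7.74, 10 and 8.89 in DKO. Its DKO ranks of 50370 to 68754 fall outside that limit, so the DKO values were filled in, and the log2 change of -1.77 (limma adjusted p = 0.0313) compares with -0.24 ± 0.13 (limma adjusted p = 0.46) over the full lists. The median log2 change of the members, 0.048 in the main fit and with the replicate block, was -0.106 without scaling, 0.013 on pileups and 0.012 to 0.074 with a library left out. Windows listed only in WT numbered 2 with the 50000 best summits (0.316% of all windows) and 9 to 12 with a library left out (2.16% to 2.45% of all windows), and those listed only in DKO 1 (0.22%) and 5 to 13 (1.79% to 2.21%), since fewer libraries then have to share a summit. Without WT3, DKO minus WT of the cluster was 5.7 summits and -17.6 in summed enrichment, and over all leave-outs 0.2 to 5.7 and -75.6 to -17.6. With the 50000 best summits these were -0.7 and -25.6, against 2.3 and -53.9 over the full lists.

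Signs of changes near 0 turned for some windows. Without scaling these were the promoters of Mmp2 (-0.07), Mmp27 (-0.09), Timp4 (-0.05), Adamts17 (-0.0), Mmp17 (-0.1) and Adamts6 (-0.09), and strong intron windows of Adamts12 (-0.1), Adamts6 (-0.01) and a window of Mmp25 (-0.01). By −log10 p they were Mmp9 (0.01), Mmp17 (-0.01), Adamts6 (-0.1) and the Adamts12 intron at chr15:11210988-11211488 (-0.15), and by pileup Mmp9 (0.0), Mmp17 (-0.03), the Adamts6 promoter (-0.17) and intron (-0.01) and that Adamts12 intron (-0.17). Median centring turned an Adamts17 intron (0.05) and the window past Adamts12 (0.0), and the 50000 best summits the Adamts6 promoter (-0.39). With a library left out, ranges crossed 0 for Mmp9 (-0.16 to 0.15), Timp4 (-0.01 to 0.23), Adamts14 (-0.11 to 0.1), the Adamts6 promoter (-0.01 to 0.17), the Adamts17 intron (-0.06 to 0.03), the window past Adamts12 (-0.14 to 0.02) and that Adamts12 intron (-0.09 to 0.1). The other named windows kept their sign under every alternative run. Of 46 named windows the change grew or shrank by over 1.5 times in 11 and 14 without scaling, 9 and 19 on pileups and 18 and 15 by −log10 p, and with the 50000 best summits it did so in 6 and 0 of 21. With a library left out the change grew by that much in 3 to 10 of the 46 windows and shrank in 3 to 10. The replicate numbers did not pair the libraries, with correlations of deviations of 0.00542, -0.0115 and -0.00715 for numbers 1, 2 and 3, and the block changed no call of a member. The cause of these shifts was not tested.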
